A study of Mus musculus with 23 samples.

Results

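The 10 genes described here encode the liver's route from tryptophan to nicotinamide adenine dinucleotide (NAD), together with enzymes that recycle or divert nicotinamide. They are Tdo2, Afmid, Kynu, Kmo, Haao, Acmsd, Qprt, Nadsyn1, Nampt and Nnmt, chosen by gene symbol from the 24062 genes of the deposited tables. All 10 had enough reads to be tested, as did 14196 genes in all. Polyadenylated RNA was sequenced from 23 livers of B6/129 mice that were wild type (WT) or carried a knockout of Ehhadh (KO), the gene of the peroxisomal L-bifunctional protein. The WT saline group held 7 mice aged 29 to 45 weeks, and the KO saline group held 5 mice aged 31 to 44 weeks. The WT L-AC group held 6 mice aged 28 to 44 weeks, and the KO L-AC group held 5 mice aged 28 to 38 weeks. The labels give L-AC only as this abbreviation. It is taken here, from outside knowledge of the study and not from the labels, as L-aminocarnitine, an inhibitor of mitochondrial long-chain fatty acid oxidation. Dose, duration, sex, feeding state and the time of day of collection are not given in the sources used here. Each library has a number of its own as its title, taken here as 1 animal, and library totals ran from 24521896 to 48095959 counted reads. The series set out to compare the genotypes under saline and under L-AC.

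In the liver most dietary tryptophan that is not used for protein is broken down along the kynurenine pathway. TDO2 opens the indole ring of tryptophan, AFMID (arylformamidase) releases formate to give kynurenine, KMO hydroxylates kynurenine, KYNU (kynureninase) cleaves the product to hydroxyanthranilate, and HAAO opens its ring to a short-lived semialdehyde. The semialdehyde can close spontaneously to quinolinate, which QPRT passes on towards NAD, or be decarboxylated by ACMSD and burned through glutarate. NADSYN1 completes NAD by adding the amide group, NAMPT rebuilds NAD from nicotinamide, and NNMT methylates nicotinamide and so removes it from that recycling.

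The 250 bases before the annotated start are shown for Haao, which fell under L-AC without overlap of the treatment groups, and for Tdo2, which rose without overlap. Sequences are from RefSeq on GRCm38.p6, 5′ to 3′ on the strand of the gene, and capitals mark matches to the motifs searched. The Haao window is chr17:83846791-83847040 on the minus strand and the Tdo2 window chr3:81975729-81975978 on the minus strand.
Haao: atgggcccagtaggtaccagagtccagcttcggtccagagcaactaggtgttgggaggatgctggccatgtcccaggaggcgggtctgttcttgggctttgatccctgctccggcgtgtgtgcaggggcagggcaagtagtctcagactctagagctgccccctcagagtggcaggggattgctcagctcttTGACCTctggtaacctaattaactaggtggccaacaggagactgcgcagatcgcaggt
Tdo2: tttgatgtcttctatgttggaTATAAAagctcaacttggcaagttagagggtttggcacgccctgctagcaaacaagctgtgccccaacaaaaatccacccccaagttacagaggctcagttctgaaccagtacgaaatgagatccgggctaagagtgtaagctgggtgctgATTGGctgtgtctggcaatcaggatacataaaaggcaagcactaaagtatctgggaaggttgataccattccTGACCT

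Windows of RefSeq were used for 7 of the 10 genes, all but Kynu, Nnmt and Acmsd. AGGTCA and its other strand TGACCT, the core letters that many nuclear receptors recognise, were found in 3 of the 7 windows, those of Tdo2, Haao and Nampt, and in 14.0% of the 32851 promoter windows of the same length. In Haao TGACCT lay at bases -58 to -53 from the start and in Tdo2 at -6 to -1. Of the other motifs, TATAAA or TTTATA was present in Tdo2 (-229 to -224) and in 12.4% of all windows, and CCAAT or ATTGG in Tdo2 (-78 to -74) and in 33.8% of all windows. GGGCGG or CCGCCC was found in the Afmid, Nadsyn1 and Nampt windows and in 32.7% of all windows, and CACGTG was found in none of the 7 and in 6.02% of all windows. The Afmid window overlaps an exon of Tk1 and is not shown.

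Per unit of transcript length the genes spanned from abundant to near the limit of use, and L-AC changed their order. Levels between genes were compared in TPM, the deposited counts divided by the exonic length of the deposited gene model and scaled to the same sum in every library. In WT saline livers Tdo2 was highest at 1745 ± 360 TPM (SD, n = 7), followed by Haao at 478 ± 34 TPM, Nnmt at 250 ± 126 TPM and Kmo at 205 ± 27 TPM. Qprt at 119 ± 16 TPM and Afmid at 100 ± 13 TPM came next, above Kynu at 59.1 ± 9.5 TPM. Nampt at 21.5 ± 5.5 TPM and Nadsyn1 at 17.1 ± 1.7 TPM stood low, and Acmsd was lowest at 4.00 ± 1.98 TPM. Neighbours whose libraries overlapped were Haao and Nnmt, Nnmt and Kmo, Qprt and Afmid, and Nampt and Nadsyn1. In KO saline livers the order was the same except that the means of Kmo (197 TPM) and Nnmt (186 TPM), which overlapped, changed places.

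In WT livers under L-AC Tdo2 stayed first at 3105 ± 442 TPM (SD, n = 6), Nnmt stood second at 518 ± 190 TPM, and Haao was level with its neighbours Kmo and Qprt, with means of 166, 172 and 163 TPM. Afmid, above Kynu in every WT saline library, had a lower mean than Kynu under L-AC, 31.3 against 46.7 TPM, with overlapping libraries. Acmsd remained last at 1.62 ± 0.53 TPM. The order of the means in KO livers under L-AC was the same as in WT livers under L-AC.

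**Figure D1:**
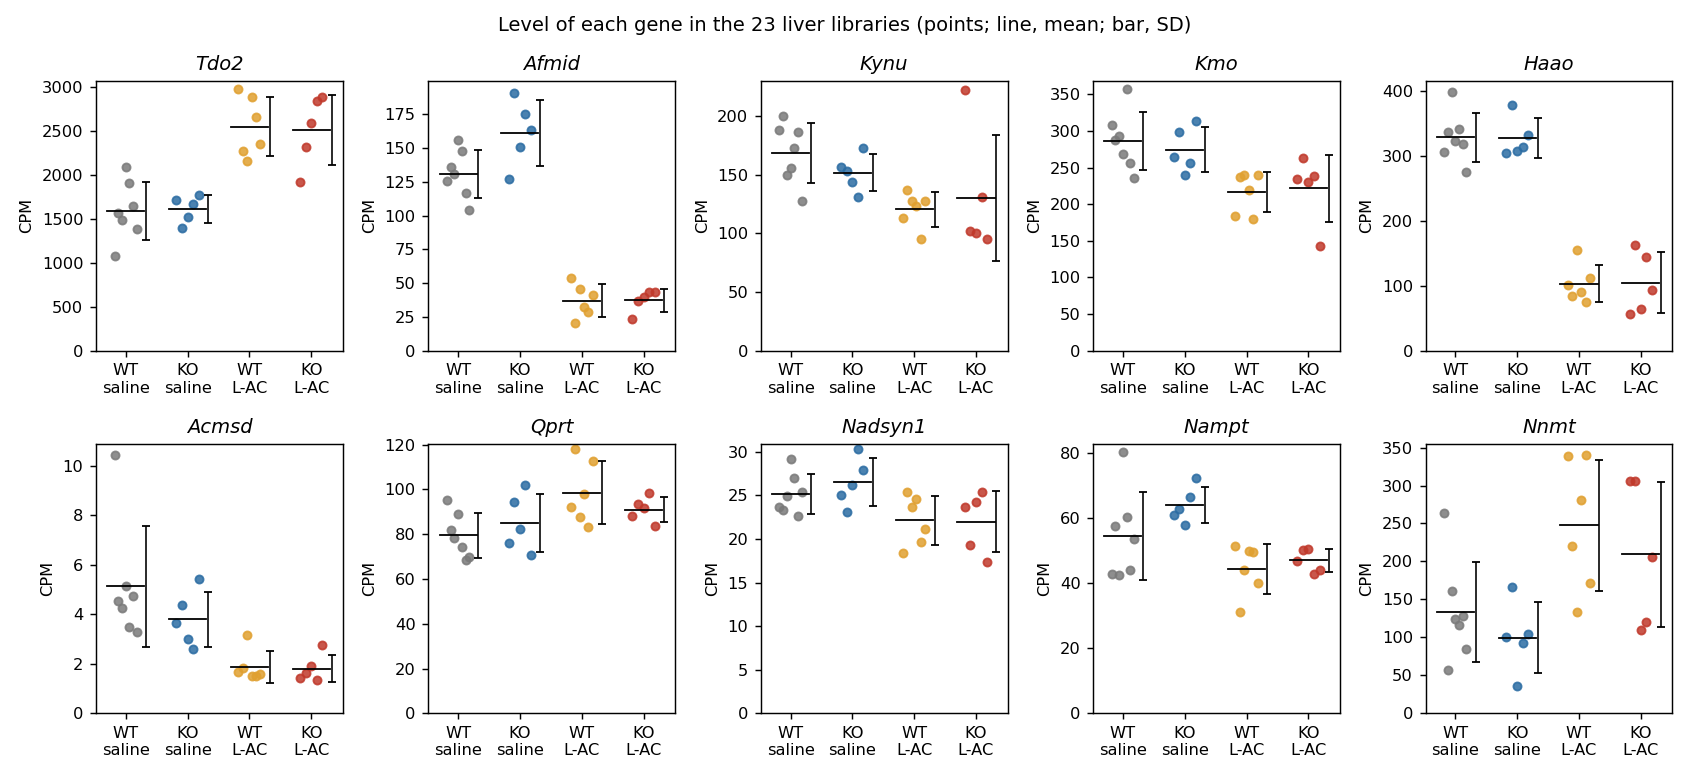
Level of each of the 10 genes in the 4 groups, in CPM on linear axes from 0, with a point for each of the 23 livers, a line at the group mean and a bar for the SD. Tdo2 lies higher and Afmid and Haao lie lower in every L-AC library than in every saline library of the same genotype.

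The first question was what L-AC did to these genes in each genotype. Levels within a gene are given in CPM, the counts relative to the scaled library size, and each test is edgeR's quasi-likelihood test with Benjamini-Hochberg adjustment over all genes tested, called at an adjusted p under 0.05. L-AC changed much of the liver transcriptome, so the share of all genes called is given as the measure to read these counts against. In WT livers 3 of the 10 genes rose (Tdo2, Nnmt and Qprt), where 26.6% of all genes were called higher, and 5 fell (Afmid, Haao, Acmsd, Kynu and Kmo), where 26.7% of all genes were called lower. In KO livers 2 rose (Tdo2 and Nnmt), against 25.2% of all genes, and 5 fell (Afmid, Haao, Acmsd, Nampt and Nadsyn1), against 23.6% of all genes. The median size of the change, without its sign, was 0.58 log2 units over the 10 genes and 0.37 over all genes in WT, and 0.54 against 0.39 in KO. The 10 genes were chosen with earlier results of these data known, so these medians are given as a description. Groups did not overlap for 4 of the 10 genes in WT (Tdo2, Afmid, Haao and Acmsd), where 24.1% of all genes did not overlap, and for 4 in KO (Tdo2, Afmid, Haao and Nampt), where 32.6% of all genes did not. These are levels of RNA in whole liver, in which fewer cells of a type and less RNA per cell cannot be told apart.

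Tdo2, which encodes the dioxygenase at the entry of the pathway (chr3:81958414-81975728, mm10, minus strand), rose in both genotypes. Its level in WT saline libraries ran from 1082 to 2088 CPM with a median of 1568, and under L-AC from 2164 to 2977 CPM with a median of 2507. In KO saline libraries it was 1715, 1393, 1523, 1667 and 1779 CPM, and under L-AC it was 1924, 2316, 2592, 2847 and 2894 CPM. The lowest L-AC library of each genotype lay above the highest saline library of that genotype. The log2 fold change was 0.68 in WT (SE 0.13, adjusted p = 1.72e-04), or 1.60-fold, and 0.64 in KO (SE 0.15, adjusted p = 0.00130).

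Afmid, whose enzyme takes the step after TDO2 (chr11:117825919-117839908, plus strand), had the largest fall of the 10 genes by fold change in both genotypes. Its WT saline libraries ran from 104 to 156 CPM with a median of 131, and its WT L-AC libraries from 20.6 to 53.6 CPM with a median of 36.7. The 5 KO livers had 127, 191, 151, 175 and 163 CPM under saline and 23.2, 36.7, 39.9, 43.3 and 43.5 CPM under L-AC. No L-AC library reached the lowest saline library of its genotype. Afmid was 3.54-fold lower in WT, which is -1.82 on the log2 scale (SE 0.18, adjusted p = 3.67e-08). It was 4.32-fold lower in KO, or -2.11 (SE 0.21, adjusted p = 3.65e-08). It shares 88 exonic bases with Tk1 on the opposite strand, reads were counted for every gene they overlap, and Tk1 itself fell by 2.67 log2 units in WT and by 3.27 in KO. Tk1's counts came to between 4.63% and 21.4% of Afmid's in a library. With all of Tk1's reads subtracted from Afmid's, Afmid was still called lower in both genotypes.

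The middle of the pathway did not move evenly. Kmo, the kynurenine hydroxylase (chr1:175632193-175660853, plus strand), ran from 236 to 358 CPM with a median of 287 in WT saline libraries and from 180 to 240 CPM with a median of 228 under L-AC. In WT its log2 fold change was -0.40 (SE 0.12, adjusted p = 0.00766), with 3 of 6 L-AC libraries below all saline libraries. Kmo in KO was at 264, 298, 240, 256 and 314 CPM under saline and 234, 263, 230, 239 and 144 CPM under L-AC. The KO difference of -0.31 (SE 0.14, adjusted p = 0.0677) did not pass, although 4 of the 5 L-AC libraries lay below every saline library. Without KO L-AC replicate 2, the highest of them, the difference was -0.37 with an adjusted p of 0.0353 in edgeR's test, and without replicate 5, the lowest, it was -0.18 (adjusted p = 0.210).

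Kynu, kynureninase (chr2:43555325-43683048, plus strand), ran from 128 to 200 CPM with a median of 173 in WT saline libraries and from 95.1 to 137 CPM with a median of 125 under L-AC. It fell in WT by 0.48 log2 units (SE 0.16, adjusted p = 0.0132), and 4 of 6 L-AC libraries lay below all saline libraries. Kynu in KO was at 157, 153, 144, 131 and 173 CPM under saline and 223, 102, 101, 131 and 94.9 CPM under L-AC. The first of these L-AC livers was the highest of all 23 libraries, and the other 4 were at 131 CPM or lower, where the lowest KO saline liver was at 131 CPM. The KO difference was -0.22 (SE 0.18, adjusted p = 0.324) with that liver and -0.50 (adjusted p = 0.00355) without it. Leaving out KO L-AC replicate 2, 3 or 5 instead gave -0.14, -0.14 and -0.12.

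Haao, the ring-opening dioxygenase (chr17:83831354-83846790, minus strand), fell about as far as Afmid in WT, and its estimated fall in KO was smaller than that of Afmid. Its WT saline libraries ran from 276 to 398 CPM with a median of 323, and its WT L-AC libraries from 75.7 to 155 CPM with a median of 95.7. The KO libraries had 304, 379, 308, 314 and 332 CPM under saline and 57.3, 163, 65.0, 144 and 93.4 CPM under L-AC. All L-AC libraries lay below all saline libraries, and the KO L-AC livers spread over a wider range than the WT L-AC livers. Haao was 3.19-fold lower in WT, which is -1.68 on the log2 scale (SE 0.20, adjusted p = 5.69e-07). It was 3.14-fold lower in KO, or -1.65 (SE 0.23, adjusted p = 3.98e-06).

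At the branch after HAAO, the gene of the enzyme that leads away from NAD fell and the gene of the enzyme that leads towards it did not. Acmsd, the decarboxylase (chr1:127729413-127767564, plus strand), had few reads, 38 to 309 in a library. Its WT saline libraries ran from 3.29 to 10.4 CPM with a median of 4.56, and its WT L-AC libraries from 1.503 to 3.15 CPM with a median of 1.64. Acmsd in KO was at 3.65, 4.36, 2.99, 2.62 and 5.41 CPM under saline and 1.43, 1.62, 1.90, 1.36 and 2.75 CPM under L-AC. The WT groups did not overlap, and in KO 4 of 5 L-AC libraries lay below all saline libraries. Its log2 fold change was -1.46 in WT (SE 0.26, adjusted p = 7.71e-05) and -1.07 in KO (SE 0.30, adjusted p = 0.00522). Acmsd shares 94 exonic bases with 2900009J06Rik, whose counts came to 9.33% to 30.3% of Acmsd's in a library, and its calls were kept with those reads subtracted.

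Qprt, the transferase that carries quinolinate towards NAD (chr7:127107770-127122029, minus strand), ran from 68.4 to 95.2 CPM with a median of 78.1 in WT saline libraries and from 83.4 to 118 CPM with a median of 94.96 under L-AC. It rose in WT by 0.31 log2 units (SE 0.10, adjusted p = 0.0111), with 3 of 6 L-AC libraries above all saline libraries. Qprt in KO was at 76.1, 94.2, 82.5, 102 and 70.7 CPM under saline and 87.9, 93.4, 91.9, 98.2 and 83.4 CPM under L-AC. The KO L-AC libraries all lay within the range of the KO saline libraries, and the difference of 0.10 had a 95% interval from -0.14 to 0.33 (adjusted p = 0.496). It ran from 0.04 without KO saline replicate 5 and 0.06 without replicate 1 to 0.17 without replicate 4.

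The ratio of Acmsd to Qprt within a library, with each count divided by exonic length, does not depend on how libraries are scaled. Its log2 value was -4.99 ± 0.42 (SD, n = 7) in WT saline livers and -6.70 ± 0.49 (n = 6) in WT L-AC livers, and the groups did not overlap. In KO it was -5.46 ± 0.58 (n = 5) under saline and -6.64 ± 0.48 (n = 5) under L-AC, and the groups overlapped. The ratio is given as a description.

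At the NAD end, Nadsyn1, the amidating synthetase (chr7:143795594-143822841, minus strand), changed little. It ran from 22.6 to 29.1 CPM with a median of 24.9 in WT saline libraries and from 18.4 to 25.3 CPM with a median of 22.4 under L-AC. The WT difference of -0.18 (SE 0.10, adjusted p = 0.115) did not pass. In KO it was 25.1, 23.1, 26.2, 30.3 and 27.9 CPM under saline and 23.6, 19.3, 24.3, 25.4 and 17.4 CPM under L-AC, and the groups overlapped. The KO fall of 0.27 log2 units (SE 0.11, adjusted p = 0.0456) lay close to the threshold. It was lost with library totals in place of scaled library sizes (-0.16, adjusted p = 0.269), with no filter on low counts, with age as a covariate, and with only the groups compared in the fit. It was also lost when any 1 of 8 libraries was left out, namely replicates 3 and 7 of WT saline, 3, 4 and 5 of KO saline, 6 of WT L-AC and 2 and 5 of KO L-AC, with adjusted p from 0.0503 to 0.144.

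Nampt, the salvage enzyme that starts from nicotinamide (chr12:32820335-32853369, plus strand), ran from 42.5 to 80.5 CPM with a median of 53.5 in WT saline libraries and from 31.3 to 51.6 CPM with a median of 47.0 under L-AC. In KO it was 61.1, 62.9, 58.1, 66.7 and 72.3 CPM under saline and 47.0, 50.4, 50.6, 43.0 and 44.3 CPM under L-AC. The KO groups did not overlap, whereas the WT groups did, with 2 of 6 L-AC libraries below all saline libraries. Nampt fell in KO by 0.45 log2 units (SE 0.15, adjusted p = 0.0168), and the WT difference was -0.29 (SE 0.13, adjusted p = 0.0657). With library totals in place of scaled sizes the KO difference was -0.34 (adjusted p = 0.0723). In WT, adding the animals' age to the fit brought Nampt past the threshold (-0.28, adjusted p = 0.0425). So did leaving out WT saline replicate 1, 3 or 6 or WT L-AC replicate 1, with values from -0.35 to -0.34. Without WT saline replicate 4, the highest library at 80.5 CPM, the difference was -0.17 (adjusted p = 0.201).

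Nnmt, the nicotinamide methyltransferase (chr9:48591890-48605077, minus strand), had the largest SE of the 10 genes in both genotypes. Its WT saline libraries ran from 57.0 to 263 CPM with a median of 125, and its WT L-AC libraries from 134 to 340 CPM with a median of 251. In KO it was 101, 166, 36.2, 92.4 and 104 CPM under saline and 305, 306, 110, 120 and 205 CPM under L-AC. In each genotype 3 L-AC libraries lay above all saline libraries and the groups overlapped. Nnmt rose in WT by 0.89 log2 units (SE 0.34, adjusted p = 0.0313) and in KO by 1.07 (SE 0.39, adjusted p = 0.0276). The WT call was lost without WT saline replicate 2, 5 or 7 or WT L-AC replicate 1, 4 or 5, with differences of 0.76 to 0.86. The KO call was lost without KO saline replicate 3 or 4 or KO L-AC replicate 1 or 2, with differences of 0.86 to 1.04.

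The log2 ratio of Nnmt to Nampt per length was 3.44 ± 0.89 (SD, n = 7) in WT saline livers and 4.67 ± 0.48 (n = 6) in WT L-AC livers. It was 2.74 ± 0.75 (n = 5) and 4.28 ± 0.69 (n = 5) in KO livers, and the treatment groups overlapped in both genotypes. The log2 ratio of Tdo2 to Nampt, the entries of the routes from tryptophan and from nicotinamide, was 6.35 ± 0.23 and 7.33 ± 0.19 in WT and 6.13 ± 0.13 and 7.20 ± 0.31 in KO. For that ratio every L-AC library lay above every saline library of its genotype.

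**Figure D2:**
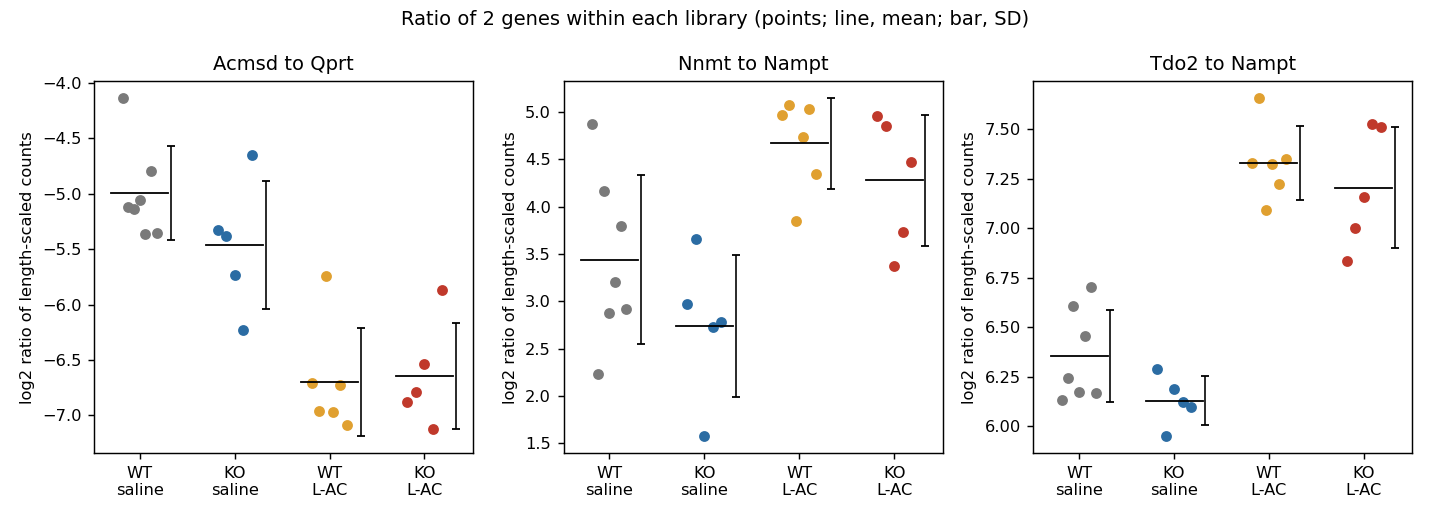
Log2 ratios of length-scaled counts within each of the 23 libraries, with a line at the group mean and a bar for the SD. Acmsd to Qprt was lower and Tdo2 to Nampt higher under L-AC, with no overlap of the treatment groups for Tdo2 to Nampt in either genotype and for Acmsd to Qprt in WT.

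Where single comparisons lay near the threshold, an average of the L-AC effect over both genotypes was added after the data were seen. In that contrast all 10 genes passed, 3 higher, where 32.6% of all genes were called higher, and 7 lower, where 32.6% of all genes were called lower. The genes that rose were Tdo2, Nnmt and Qprt, the last by 0.20 log2 units (SE 0.08, adjusted p = 0.0209). Kmo, Kynu, Nampt and Nadsyn1 fell by 0.36, 0.35, 0.37 and 0.23 log2 units. Small changes depend on how libraries are scaled. Without scaling factors, the median of all genes in KO moved from -0.01 to 0.11 log2 units, and 63.6% rather than 51.6% of the genes called in KO were higher. Read with library totals, Kynu (-0.26, adjusted p = 0.0701) and Nadsyn1 (-0.14, adjusted p = 0.128) no longer passed in the average, the other 8 genes did, and no gene of the 10 changed direction.

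The study's other question, whether loss of Ehhadh changes these levels, gave no call among the 10 genes. Ehhadh itself, the check of the labels, had a median of 884 CPM in WT saline and 127 CPM in KO saline livers, and of 13470 and 1617 CPM under L-AC, with no overlap of the genotypes within a treatment. Under saline 0 of the 10 genes were called in KO against WT, where 0.0141% of all genes were called, and under L-AC also 0 of 10, against 0.0141%. In edgeR's test 0 of the 10 had an unadjusted p under 0.05 in either comparison, and DESeq2 and limma-voom called 0 as well. For Tdo2 the KO to WT difference under saline was 0.02 with a 95% interval from -0.27 to 0.31, and for Haao it was -0.0049 with an interval from -0.43 to 0.42. For Afmid, with 3 of 5 KO saline libraries above all WT saline libraries, it was 0.30 with an interval from -0.08 to 0.68. Nampt had a difference of 0.24 with an interval from -0.05 to 0.52, Acmsd one of -0.43 from -0.97 to 0.12, and Nnmt one of -0.42 from -1.17 to 0.33. These 3 values rest in part on single libraries. Without WT saline replicate 1, at 10.4 CPM the highest for Acmsd, the Acmsd difference was -0.15. The Nnmt difference was -0.17 without that same liver, -0.21 without KO saline replicate 3 and -0.68 without KO saline replicate 2, and the Nampt difference was 0.35 without WT saline replicate 4. Under L-AC the differences of the 10 genes ran from -0.24 for Nnmt to 0.11 for Kynu. The Kynu value includes KO L-AC replicate 1, at 223 CPM against 94.9 to 131 CPM in the other KO L-AC livers. No value without that liver is given for this comparison. The Nnmt value ran from -0.42 to -0.08 when each library was left out in turn.

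The test of whether L-AC acted differently in KO than in WT also called 0 of the 10 genes and 0% of all genes, with 0 of the 10 at an unadjusted p under 0.05 in edgeR's test, and DESeq2 and limma-voom called 0 of the 10. The difference of the L-AC effects was -0.29 log2 units for Afmid (95% interval -0.84 to 0.26), 0.39 for Acmsd (-0.42 to 1.20) and -0.21 for Qprt (-0.53 to 0.10). For Kynu it was 0.27 (-0.23 to 0.76) and lay at -0.01 without KO L-AC replicate 1. The Afmid value was -0.15 when WT L-AC replicate 1 was left out, and -0.16 when this was KO L-AC replicate 1. The Acmsd value was 0.12 with WT saline replicate 1 left out, and 0.19 with KO L-AC replicate 5 left out. Over the alternatives in processing, the subtraction of overlapping reads among them, the Acmsd value ran from 0.25 to 0.47. The Qprt value was -0.14 with KO saline replicate 4 left out. A gene that passed in a single genotype, such as Qprt in WT or Nampt in KO, was therefore not shown to differ between genotypes.

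**Figure D3:**
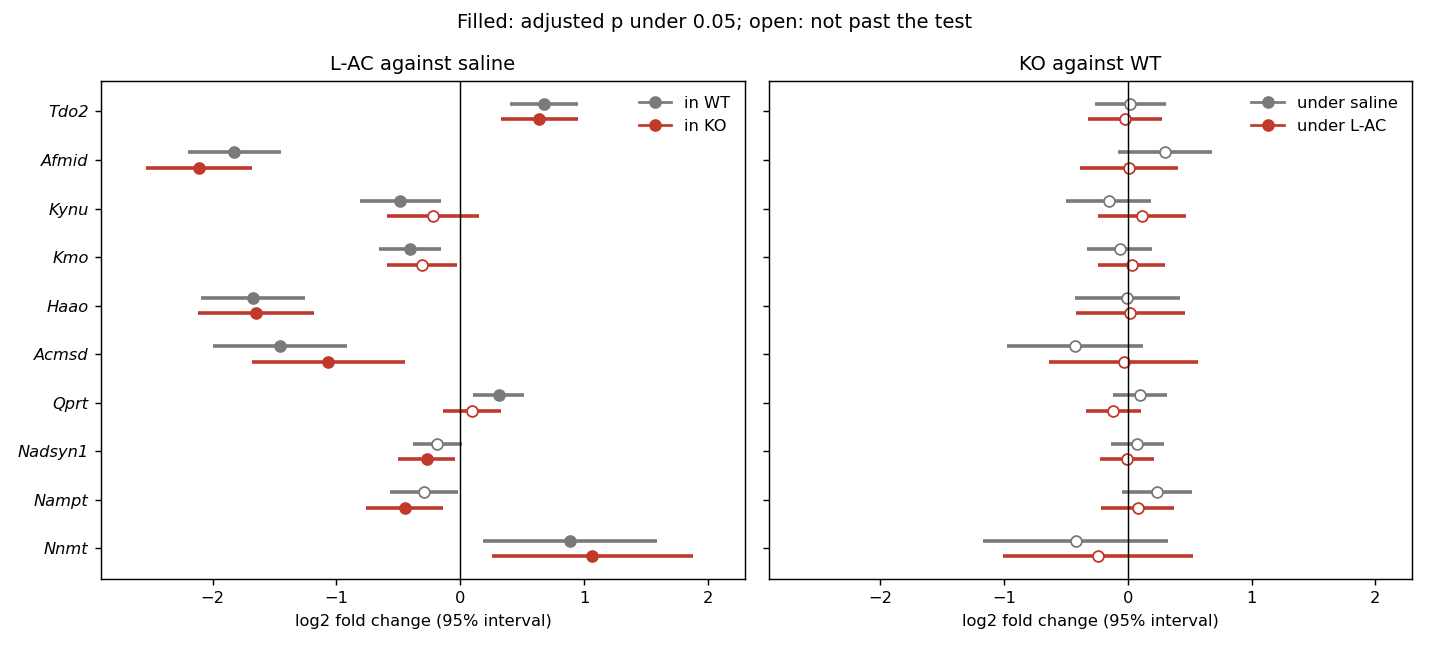
Log2 fold changes of the 10 genes with 95% intervals, for L-AC against saline in WT and KO livers (left) and for KO against WT under saline and under L-AC (right). Filled points have an adjusted p under 0.05 in edgeR's test, and no point on the right is filled.

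Genes that surround the pathway were read from lists chosen with earlier results of these data known. At the entry, Ido1, the dioxygenase best known from immune cells, had at most 0.0290 CPM in any library. Ido2, its paralog in liver, averaged 60.0 ± 14.3 CPM (SD, n = 7) in WT saline and 6.26 ± 6.0 CPM (n = 6) in WT L-AC livers, a log2 fold change of -3.29 (adjusted p = 7.43e-07), and it fell by 3.61 in KO (adjusted p = 1.50e-06). Ido2 and Tdo2, which encode enzymes of the same reaction, thus moved in opposite directions. Of the 7 entry and transport genes tested, 2 rose and 2 fell in each genotype, near the shares of all genes called (26.6% higher and 26.7% lower in WT, 25.2% and 23.6% in KO). Slc3a2, the heavy chain of amino acid exchangers, rose by 1.51 in WT and 1.69 in KO, and Slc7a8, a partner of it, fell by 1.05 and 1.30. Ddc, the aromatic amino acid decarboxylase, rose in WT (0.60, adjusted p = 0.00481), with a KO difference of 0.21 (adjusted p = 0.387), and Slc7a5, another partner of Slc3a2, rose in KO (0.67, adjusted p = 0.0442), with a WT difference of 0.27 (adjusted p = 0.338).

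The side branch from kynurenine to kynurenate is served by 4 aminotransferases. Of these 1 fell in each genotype and none rose, near the shares of all genes called lower (26.7% in WT, 23.6% in KO). The gene that fell was Ccbl1, now named Kyat1. It averaged 99.5 ± 28.6 CPM in WT saline and 18.6 ± 3.1 CPM in WT L-AC livers. Ccbl1 fell by 2.42 log2 units in WT (adjusted p = 4.83e-09) and by 2.36 in KO (adjusted p = 4.84e-08). Aadat, Ccbl2 and Got2 had differences between -0.42 and 0.10 that did not pass. In the branch that burns the product of ACMSD, 3 of 3 genes were called lower in both genotypes, where 26.7% of all genes were called lower in WT and 23.6% in KO. These were Aldh8a1, which oxidises that product (-0.45 in WT and -0.54 in KO), Dhtkd1, of the oxoadipate dehydrogenase (-0.81 and -1.08), and Gcdh, glutaryl-CoA dehydrogenase (-0.84 and -0.73). Acmsd and these genes were thus all called lower in both genotypes, with a median over the 3 of -0.81 in WT and -0.73 in KO, where the median of all genes was -0.01 in both.

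Of 9 further genes of NAD and NADP synthesis tested, 2 rose and 3 fell in WT, and 2 rose and 4 fell in KO. Of all genes 26.6% were called higher and 26.7% lower in WT, and 25.2% and 23.6% in KO. Nadk2, the mitochondrial NAD kinase, averaged 203 ± 23 CPM in WT saline and 101 ± 24 CPM in WT L-AC livers and fell by 1.01 in WT and 1.10 in KO. Nmrk1, the nicotinamide riboside kinase, fell by 0.73 and 0.66, and Naprt1, now named Naprt, which starts NAD from nicotinic acid, fell by 0.69 and 0.66. Slc25a51, the mitochondrial NAD carrier, rose by 1.31 and 1.18, and Nudt12, an NADH hydrolase, by 0.42 and 0.51. Nnt, the transhydrogenase, fell in KO by 0.57 (adjusted p = 0.00447), with a WT difference of -0.29 (adjusted p = 0.0781). Nmnat1 and Nmnat3, which join the adenylate to NAD precursors, had differences of 0.16 to 0.49 that did not pass.

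Of 18 enzymes that consume NAD, 3 were called higher and 7 lower in WT and 2 higher and 6 lower in KO, where 26.6% and 26.7% of all genes were called higher and lower in WT and 25.2% and 23.6% in KO. The other 8 in WT and 10 in KO did not pass. The strongest fall by p was that of Sirt7, a nuclear sirtuin, from 56.1 ± 4.1 CPM in WT saline to 24.0 ± 3.8 CPM in WT L-AC livers (-1.22 in WT, -1.07 in KO). Sirt4 and Sirt3, mitochondrial sirtuins, fell by 1.01 and 0.40 in WT and by 0.60 and 0.45 in KO. Parp14 fell by 1.09 and 1.12, while Parp2, a DNA damage responsive polymerase, rose by 0.52 and 0.64 and Parp4 by 1.14 and 0.97. Downstream of NNMT, both aldehyde oxidases on the list fell. Aox3, the main aldehyde oxidase of mouse liver, averaged 574 ± 124 CPM in WT saline and 34.1 ± 12.4 CPM in WT L-AC livers, with log2 fold changes of -4.07 in WT (adjusted p = 1.94e-10) and -4.24 in KO (adjusted p = 9.99e-10). Aox1 fell by 0.55 and 0.74. Nnmt rose in the same comparisons in which the genes of enzymes that oxidise its product fell.

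**Figure D4:**
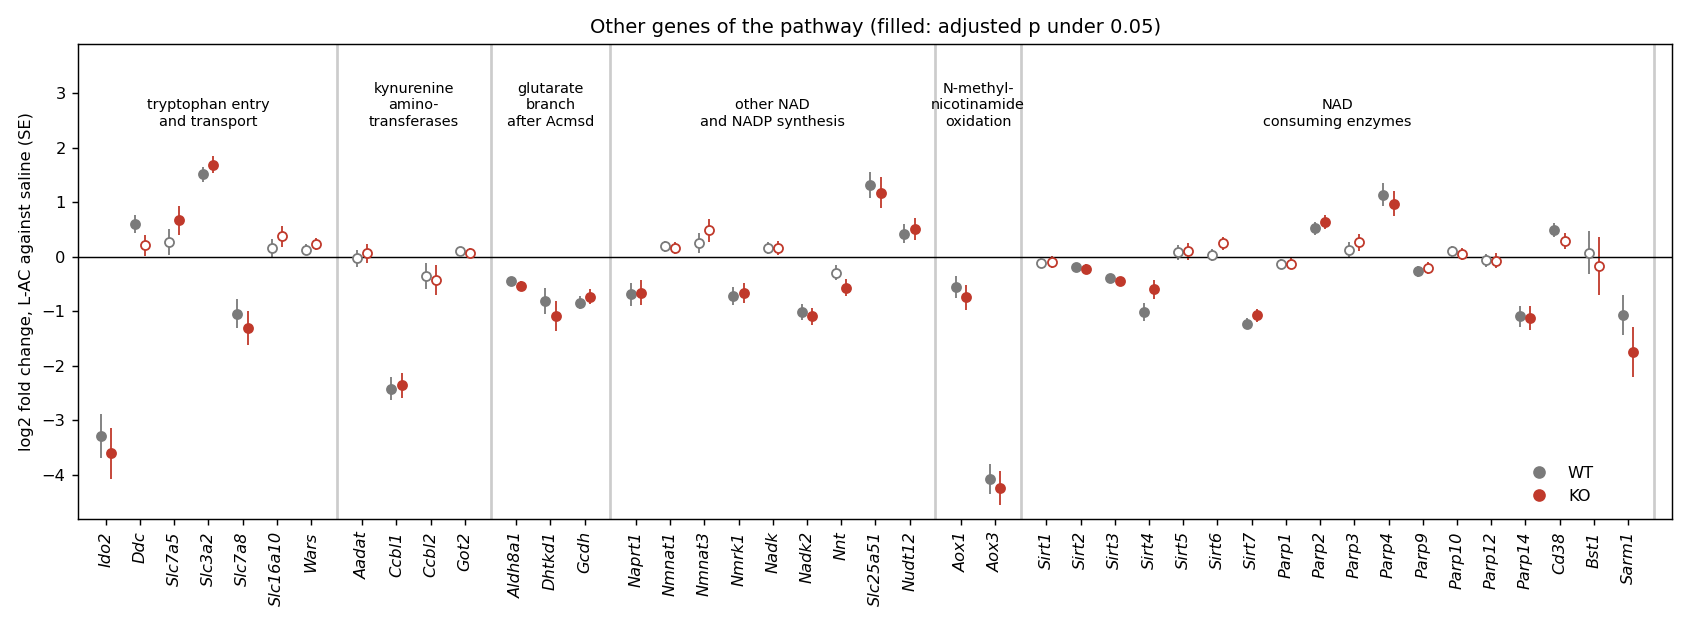
Log2 fold changes with SE of the other pathway genes tested, L-AC against saline, in WT and KO livers, grouped by role, with filled points past an adjusted p of 0.05. Aox3, Ido2 and Ccbl1 have the largest falls, and Slc3a2, Slc25a51 and Parp4 the largest rises.

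The tissue itself looked like liver in every library, and some of its composition markers also moved with L-AC. The counts of markers below are to be read against the shares of all genes called. These were 26.6% higher and 26.7% lower in WT, and 25.2% higher and 23.6% lower in KO. The summed level of 10 hepatocyte markers was 72430 to 84740 CPM in WT saline and 53530 to 64420 CPM in WT L-AC livers, and 79490 to 89090 and 41000 to 66310 CPM in KO. Of these markers 0 rose and 5 fell in WT, among them Trf, Serpina1a and Asgr1, and 0 rose and 7 fell in KO. Not every hepatocyte marker went down. The mean of Cps1 was 2020 CPM in WT saline and 3031 CPM in WT L-AC livers, and 1791 and 2813 CPM in KO. Cps1 was called in neither genotype. Of 11 Kupffer cell and macrophage markers 1 rose and 8 fell in WT, and 1 rose and 5 fell in KO, with sums of 97.1 to 325 CPM in WT saline, 75.9 to 139 CPM in WT L-AC, 128 to 257 CPM in KO saline and 65.3 to 196 CPM in KO L-AC livers. The sums of the other lists overlapped between treatments in both genotypes and reached at most 3.48 CPM for neutrophils, 7.38 CPM for lymphocytes, 247 CPM for endothelium, 237 CPM for stellate cells and fibroblasts and 79.1 CPM for cholangiocytes. Of 3 neutrophil markers tested none passed, and of 5 lymphocyte markers 1 rose and 4 fell in WT and 1 rose and 2 fell in KO. Of 8 endothelial markers 1 fell in WT and 2 in KO, of 8 stellate and fibroblast markers 3 rose and 1 fell in WT and 1 rose and 1 fell in KO, and of 5 cholangiocyte markers 1 fell in each genotype. The endothelial and cholangiocyte falls lay near or below the shares of all genes called lower. No marker that was matched was at 0 in all libraries of a group. Of 16 circadian clock genes, 1 rose and 7 fell in WT and 1 rose and 4 fell in KO, among them Hlf, Nfil3 and Nr1d1, which were lower in both. Of all genes 26.7% were called lower in WT and 23.6% in KO, and the 4 of 16 in KO lay near that share. The part of cell composition and of the clock in the changes of the 10 genes was not tested. The first principal component, with 60.4% of the variance, separated saline from L-AC libraries, with values of -43.3 to -24.5 against 22.6 to 58.3.

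Over the 23 libraries, which share the treatment difference, the gene most like Haao was Serpina1b (Pearson r = 0.98), followed by Adra1b (r = 0.98), and the genes most like Afmid were Clcn2 (r = 0.98) and Akr1d1 (r = 0.98). The genes most like Tdo2 were Serinc3 and Smap1 (r = 0.93 for both), those most like Kmo were Gfm2 (r = 0.92) and Immp2l (r = 0.90), and those most like Acmsd were Wdr78 and Mx1 (r = 0.91 for both). For Kynu they were Arrdc4 (r = 0.83) and Ogt (r = 0.82), for Qprt Vti1a (r = 0.82) and Slc25a11 (r = 0.81), and for Nadsyn1 Tyk2 (r = 0.86) and Tfcp2 (r = 0.84). For Nampt they were Osbpl5 (r = 0.83) and Tef (r = 0.81), and for Nnmt Med27 (r = 0.88) and Nhp2l1 (r = 0.85). When each library was taken as its deviation from its group mean, the closest genes were Serinc3 and Vps11 for Tdo2 (r = 0.84 and 0.78), Akr1d1 and Aldh4a1 for Afmid (r = 0.89 and 0.88), Leap2 and Serpina1b for Haao (r = 0.90 for both) and 3830406C13Rik and Gfm2 for Kmo (r = 0.89 and 0.87). They were 2900009J06Rik, which overlaps it, and Trmt10a for Acmsd (r = 0.89 and 0.76), Vti1a and Tlcd1 for Qprt (r = 0.83 and 0.79), Gm10319 and Lin7a for Kynu (r = 0.80 and 0.78), and Ngef and Brat1 for Nadsyn1 (r = 0.83 and 0.80). For Nampt they were Igfbp6 and Abhd15 (r = 0.78 and 0.75), and for Nnmt Med27 and Ssu72 (r = 0.80 and 0.78).

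Among the 10 genes themselves, Afmid and Haao were the closest pair over all libraries (r = 0.94), and Tdo2 and Acmsd the most opposed (r = -0.78). Within groups the 45 pairs had a median r of 0.05 and ran from -0.36 for Tdo2 and Kynu to 0.58 for Tdo2 and Nampt, with Afmid and Haao at 0.55. These values describe the same 23 libraries and share their treatment, depth and scaling.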

How the data were processed

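Livers of 23 mice were sequenced as polyadenylated RNA, single-end. Reads were aligned with STAR 2.4.0 to mm10 (GRCm38), per the submitters' processing notes, and counted by the authors with featureCounts 1.4.4, primary alignments only, without strand and for every gene overlapped, per the file headers. The deposited values are raw counts per gene. The 10 genes and all lists were chosen with earlier results of these data known. Counts were tested with edgeR 4.0.16 (R 4.3.3) by its quasi-likelihood test, TMM scaling, filterByExpr by group (minimum count 10, minimum total 15), 1 mean per group over all 23 libraries, and Benjamini-Hochberg adjustment over 14196 genes. CPM use TMM-scaled library sizes, and SEs are the log2 fold change divided by the root of F. TPM and ratios use exonic lengths from the file. Likeness is Pearson's r of log2(CPM + 0.5). Strand-free counting cannot tell a gene from an antisense partner, and overlaps were checked for the 10 genes alone. Groups come from the genotype and treatment labels, and replicate numbers follow accession order, so they pair nothing. No label states that the samples are separate animals, and if they are not, p-values measure a spread that may be technical. No pair of libraries within a group agreed within sampling noise (lowest chi-square per degree of freedom 44.1 over 56 pairs). Alternatives included DESeq2 1.42.0 and limma-voom (limma 3.58.1). Named genes are all 10, up to 4 called genes per pathway list and genotype by p, up to 3 markers per list, and the 2 most alike per gene in each sense. Beyond these, Nudt12 and Parp4, which were called, and some list genes that were not called are also named. The test was checked on counts simulated with few genes changed, which does not cover comparisons where much of the transcriptome changes. List genes were matched by symbol, 5 of them by an older name, and Ly6g was not matched. The promoter window of Acmsd is not reported here.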

Additional observations from a re-analysis of the deposited data

Results flagged for a closer look

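In 40 sets of libraries (10 genes in 4 groups) the highest or lowest library was compared with the rest of its group, and 4 stood apart by Dixon's 95% criterion, where chance alone flags about 1 in 20. Kynu in KO L-AC replicate 1 was 222.7 CPM, against 94.9 to 131 CPM in the other 4 livers. Kmo in KO L-AC replicate 5 was 143.5 CPM, against 230.2 to 263 CPM in the others. Acmsd in WT saline replicate 1 was 10.43 CPM, against 3.29 to 5.14 CPM in the others, and Acmsd in WT L-AC replicate 3 was 3.151 CPM, against 1.503 to 1.82 CPM. These livers were kept in every value above unless it is stated otherwise.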

How the results depend on the processing

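Across DESeq2's size factors, library totals, no filter, a filter of 1 CPM in 5 libraries, age as a covariate, only the groups compared, DESeq2 and limma-voom, the number of the 10 genes called stayed at 8 to 9 for L-AC in WT, 5 to 7 in KO, 0 for both genotype comparisons and the interaction, and 8 to 10 for the average over genotypes. The interaction could not be fitted with only the groups compared. Leaving out each of the 23 libraries gave 7 to 9 in WT and 5 to 7 in KO. Tdo2, Afmid, Haao and Acmsd kept their calls in both genotypes under all of these. Afmid and Acmsd also kept them with overlapping reads subtracted, which was run with the main settings on all 23 libraries alone. In the leave-outs Afmid ranged from -1.96 to -1.70 in WT and -2.19 to -1.98 in KO, and Haao from -1.83 to -1.60 and -1.87 to -1.49. The interaction of Kynu ranged from -0.01404 to 0.3618 over the leave-outs and changed sign only without KO L-AC replicate 1. Nadsyn1 in KO had differences of -0.16 to -0.29 over the other alternatives and lost its call in 4 of them. In all, 25 single-gene values lost their call, 7 gained it, 1 reversed and 1203 were the same. Library totals, the average over genotypes and the subtraction of overlapping reads were chosen after seeing the data. No paired analysis was possible because the labels give no replicate numbers. Depth limits Acmsd most, at 38 to 309 reads in a library.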
